A study of Mus musculus with 9 samples.

Results

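C-type lectin receptors are the surface proteins with which macrophages bind sugars, lipids and the remains of dead cells. The genes described here are *Cd209f*, *Cd209a*, *Cd209b*, *Cd207*, *Clec1b*, *Clec4n*, *Clec4a1*, *Clec4a3*, *Clec7a* and *Clec12a*, 10 receptors named by symbol and matched to the table of normalized counts by Ensembl identifier. Of these, 8 had a row among the 13708 genes of the table, and *Cd209a* and *Cd209b*, the mouse relatives of DC-SIGN found on dendritic cells and on marginal zone macrophages of the spleen, had none. Bulk RNA-seq had been done on CD45+ F4/80hi CD11blow macrophages sorted from mouse livers at E15.5, a stage of embryonic life at which the liver makes red blood cells. In 5 *Mrc1Cre Xpr1fl/fl* samples, Cre recombinase expressed from *Mrc1*, the gene of the mannose receptor CD206, deletes the floxed phosphate exporter gene *Xpr1*, and 4 *Xpr1fl/fl* samples carried the floxed alleles without Cre and served as controls. Both genotypes therefore share the floxed alleles. *Mrc1* is also active in the sinusoidal endothelium of the liver, so that deletion need not be limited to macrophages. The comparison asks how macrophages that lose *Xpr1* differ from control macrophages of the same age. The labels do not say whether each sample is 1 embryo or a pool, and p-values then measure only the spread between these samples.

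Receptors of this family signal in different ways. Dectin-1 (*Clec7a*, for fungal glucans) and CLEC-2 (*Clec1b*, for podoplanin) carry a short activating motif (hemITAM) in their own tails, and Dectin-2 (*Clec4n*, for fungal mannans) borrows the full motif (ITAM) of the Fc receptor gamma chain. The kinase SYK acts downstream of these receptors, and the adaptor CARD9 relays signals of Dectin-1 and Dectin-2 to NF-kB. MICL (*Clec12a*), a receptor for uric acid crystals and dead cells, carries an inhibitory motif (ITIM) that recruits the phosphatases SHP-1 and SHP-2. *Clec4a1* and *Clec4a3* encode relatives of the dendritic cell immunoreceptor DCIR. Langerin (*Cd207*), best known from Langerhans cells, and the DC-SIGN relative encoded by *Cd209f* bind and take up glycans.

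The receptors lie in 4 places on the genome (GRCm39), and the 250 bases before the annotated RefSeq start are shown for 6 of them that differed between genotypes, the receptors with the largest falls, *Cd209f*, *Clec1b* and *Cd207*, and 3 receptors with smaller changes in either direction, *Clec12a*, *Clec4a1* and *Clec7a*. The RefSeq promoter table (GRCm38.p6) held 9 of the 10 genes, and each of these stretches matched its chromosome in GRCm39 at exactly 1 place. They are written 5′ to 3′ on the strand of the gene, at chr8:4155765-4156014 (minus strand) for *Cd209f*, chr6:129374010-129374259 (plus) for *Clec1b*, chr6:83654840-83655089 (minus) for *Cd207*, chr6:129326957-129327206 (plus) for *Clec12a*, chr6:122898557-122898806 (plus) for *Clec4a1* and chr6:129449749-129449998 (minus) for *Clec7a*. Capitals mark the PU box GAGGAA on either strand, the core to which the macrophage factor PU.1 binds.
Cd209f: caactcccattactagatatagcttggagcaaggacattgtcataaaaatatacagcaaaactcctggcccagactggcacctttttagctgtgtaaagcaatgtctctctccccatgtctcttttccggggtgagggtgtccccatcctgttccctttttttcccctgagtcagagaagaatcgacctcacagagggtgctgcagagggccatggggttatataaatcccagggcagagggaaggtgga
Clec1b: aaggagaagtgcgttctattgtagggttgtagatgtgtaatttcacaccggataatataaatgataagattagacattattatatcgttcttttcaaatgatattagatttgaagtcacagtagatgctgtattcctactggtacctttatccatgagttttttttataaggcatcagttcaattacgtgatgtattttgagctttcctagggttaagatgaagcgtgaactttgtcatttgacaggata
Cd207: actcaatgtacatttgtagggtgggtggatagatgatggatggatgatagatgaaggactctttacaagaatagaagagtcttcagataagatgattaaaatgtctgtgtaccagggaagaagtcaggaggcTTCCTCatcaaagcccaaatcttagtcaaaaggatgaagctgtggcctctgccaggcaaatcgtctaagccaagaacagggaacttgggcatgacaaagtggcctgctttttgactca
Clec12a: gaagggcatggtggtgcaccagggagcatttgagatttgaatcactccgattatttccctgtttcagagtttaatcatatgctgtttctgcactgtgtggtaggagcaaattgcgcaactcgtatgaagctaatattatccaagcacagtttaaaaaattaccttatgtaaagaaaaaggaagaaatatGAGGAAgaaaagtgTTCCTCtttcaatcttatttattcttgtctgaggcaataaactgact
Clec4a1: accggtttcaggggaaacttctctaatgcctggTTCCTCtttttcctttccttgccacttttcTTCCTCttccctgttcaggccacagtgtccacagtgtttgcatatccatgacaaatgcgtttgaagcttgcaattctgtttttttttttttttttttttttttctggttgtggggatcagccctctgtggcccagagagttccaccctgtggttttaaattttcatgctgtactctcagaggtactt
Clec7a: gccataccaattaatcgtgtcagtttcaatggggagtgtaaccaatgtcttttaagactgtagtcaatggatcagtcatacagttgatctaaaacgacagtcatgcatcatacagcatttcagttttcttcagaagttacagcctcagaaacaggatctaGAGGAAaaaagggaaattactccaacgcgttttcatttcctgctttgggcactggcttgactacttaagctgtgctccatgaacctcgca
The PU box was found in 4 of the 9 stretches (*Cd207*, *Clec12a*, *Clec4a1* and *Clec7a*) and in 23.4% of all 32536 promoter stretches of that length. These 4 genes include receptors that were higher and receptors that were lower. All 4 are among the stretches shown. Those not shown, of *Cd209a*, *Cd209b* and *Clec4a3*, held no PU box, although *Clec4a3* also differed between genotypes. A MAF recognition core (TGCTGAC) and the interferon-stimulated response element, searched on both strands in the same way, were found in 0 of the 9 and in 3.8% and 3.0% of all stretches. The marked PU boxes overlap no match of the other 2 motifs. A match is a description of the letters, and binding was not measured here.

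The deleted gene checks the labels. *Xpr1* had 1162.1 ± 84.9 normalized counts in *Mrc1Cre Xpr1fl/fl* samples and 1981.6 ± 204.7 in *Xpr1fl/fl* samples (SD, n = 5 and 4), and the change was −0.77 on the log2 scale (adjusted p = 4.13e-05 in limma). *Mrc1*, the gene that drives Cre and itself a C-type lectin gene, fell by 1.72 on the log2 scale (adjusted p = 5.37e-06 in limma). The paper states that the Cre construct was inserted into *Mrc1* itself, and the part of this insertion in the fall was not tested. The total of the table was 27987204 to 28309443 normalized counts per *Mrc1Cre Xpr1fl/fl* sample and 26942921 to 28291555 per control, and the sequencing depth behind it is unknown. Column names carry 3 dates, and what the dates stand for is not stated. The earliest holds *Mrc1Cre Xpr1fl/fl* sample 5 and *Xpr1fl/fl* samples 1 to 3, the middle *Xpr1fl/fl* sample 4, and the latest *Mrc1Cre Xpr1fl/fl* samples 1 to 4. Genotype can therefore be compared within a date only at the earliest one, with 1 *Mrc1Cre Xpr1fl/fl* sample, and a fit with date as a term rests on that comparison. In bulk RNA, fewer cells of a type and less RNA per cell cannot be told apart.

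Of the 8 receptors, 3 were higher in *Mrc1Cre Xpr1fl/fl* macrophages (*Clec4a1*, *Clec4a3* and *Clec7a*), 4 were lower (*Cd209f*, *Clec1b*, *Cd207* and *Clec12a*) and *Clec4n* did not pass. Over all 13594 genes tested by limma, 21.5% were called higher and 21.6% lower, 43.1% in all. At an unadjusted p under 0.05 limma gave 51.2% of all genes. For the same 7 receptors no sample of 1 genotype reached into the range of the other, 3 lying higher and 4 lower in *Mrc1Cre Xpr1fl/fl* samples. That was the case for 34.1% of all genes, 16.6% higher and 17.5% lower. With a date term, 2 receptors stayed higher (*Clec4a1* and *Clec4a3*) and 3 lower (*Cd209f*, *Clec1b* and *Cd207*), where 4.24% of all genes were called higher and 4.54% lower, 8.78% in all (25.9% at an unadjusted p under 0.05). *Cd209f* passed the filter on low values only through the controls and had to differ. Of the 7 other receptors, 3 were higher and 3 lower, the same 6 did not overlap, and 2 were higher and 2 lower with a date term.

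**Figure D1:**
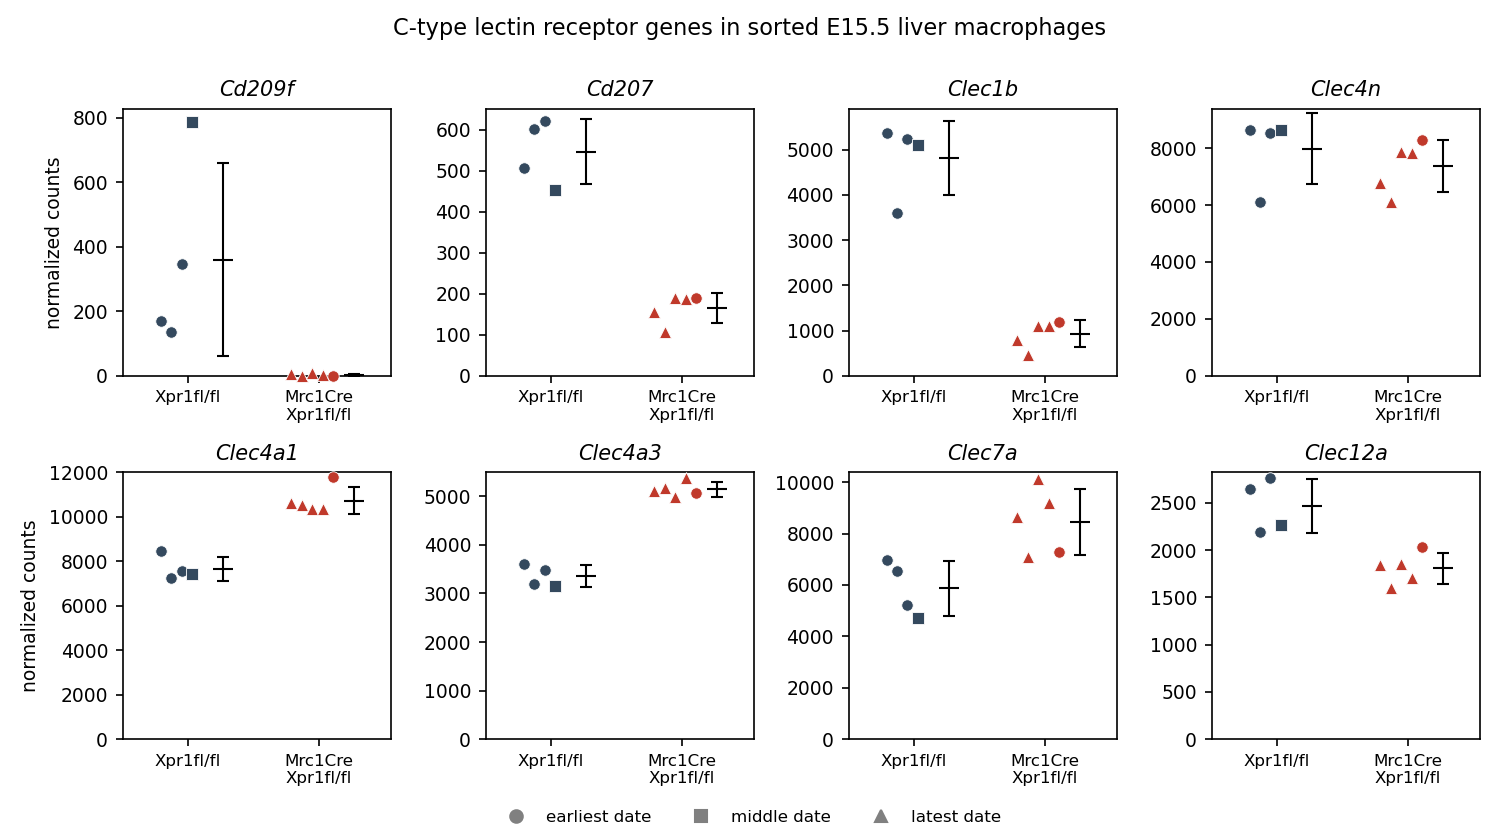
Normalized counts (vertical axes, each from 0) of the 8 receptor genes in every sample, controls in dark blue and *Mrc1Cre Xpr1fl/fl* samples in red, with the date in the column name as the symbol and the mean ± SD as a bar (n = 4 and n = 5). The genotypes do not overlap in 7 of the panels, and *Clec4n* is the exception.

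The uptake receptor *Cd209f* was nearly absent from one genotype. The gene (ENSMUSG00000051906, chromosome 8, 4151166 to 4155847, minus strand) had 6.2, 0.0, 7.9, 2.3 and 0.7 normalized counts in *Mrc1Cre Xpr1fl/fl* samples 1 to 5. Controls 1 to 4 had 169.2, 137.0, 346.2 and 788.4. The receptor was thus close to nothing in every *Mrc1Cre Xpr1fl/fl* sample and present in every control, although the controls themselves spanned a 5.76-fold range with sample 4 on top. The log2 fold change was −6.45 (standard error, SE, 0.69), and its size depends on the pseudocount, since it was −4.49 with a pseudocount of 10. Its p is not given, since it passed the filter only through the controls. Of its stretches of 31 bases, 22.14% also occur in other genes, nearly all of them in its neighbour *Cd209g*, so the counting could have split reads between the pair. *Cd209g* itself had 28.7 normalized counts on average in controls and 0.5 in *Mrc1Cre Xpr1fl/fl* samples and was too low to be tested.

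*Cd207* (ENSMUSG00000034783, chromosome 6, 83648190 to 83654839, minus strand), the gene of langerin, had 155.8, 106.3, 189.6, 186.3 and 190.7 normalized counts in *Mrc1Cre Xpr1fl/fl* samples 1 to 5. It had 507.4, 601.3, 621.2 and 453.5 in controls 1 to 4. All *Mrc1Cre Xpr1fl/fl* samples were far below the lowest control, and the mean was 30.4% of the control mean (165.7 ± 36.2 against 545.8 ± 79.1, SD). The log2 fold change of −1.73 had an SE of 0.18 (adjusted p = 4.1e-05 in limma), and with a date term it was −1.59 (adjusted p = 0.0126 in limma). The gene next to it, *Clec4f*, encodes a receptor for glycolipids on Kupffer cells and had 7408.9 ± 1989.8 normalized counts in controls and 1857.4 ± 727.8 in *Mrc1Cre Xpr1fl/fl* samples. Within samples, the ratio of *Cd207* to *Clec4f* was 0.096 ± 0.0286 in *Mrc1Cre Xpr1fl/fl* samples and 0.0799 ± 0.0333 in controls (SD, n = 5 and 4), and no difference was detected in a two-sided exact permutation test (p = 0.365, and 0.365 after adjustment over 6 pairs of genes).

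*Clec1b* (ENSMUSG00000030159, chromosome 6, 129370783 to 129386298, plus strand) encodes CLEC-2, which platelets and liver macrophages carry. The normalized counts were 797.4, 470.4, 1101.4, 1098.6 and 1199.3 in *Mrc1Cre Xpr1fl/fl* samples 1 to 5 and 5362.9, 3604.8, 5224.6 and 5095.7 in controls 1 to 4. The genotypes were far apart, the highest *Mrc1Cre Xpr1fl/fl* sample reaching less than the lowest control, and the mean fell from 4822.0 ± 818.7 to 933.4 ± 299.6 (SD), which is 19.4% of the control level. This gave a log2 fold change of −2.43 (SE 0.24, adjusted p = 3.78e-05 in limma) and one of −1.96 with a date term (adjusted p = 0.0201 in limma). Of its stretches of 31 bases, 3.0% also occur in *Clec9a*, which was lower as well. Platelets also carry CLEC-2, and of 11 genes of megakaryocytes and platelets 6 were lower and 0 higher in limma (0 also at an unadjusted p under 0.05). With a date term only 1 of them was lower, and their median log2 fold change was −0.18 instead of −1.22. Their summed level was 787.9 to 1265.2 normalized counts in *Mrc1Cre Xpr1fl/fl* samples and 2419.8 to 2984.0 in controls. *Pf4* was the most abundant of them, with 528.0 ± 98.3 and 1776.8 ± 217.0, and carried most of that difference. It was also the gene that was lower with a date term, at −1.92. The next in abundance, *Itga2b*, had 215.7 ± 44.0 and 282.9 ± 29.8 and did not pass. The platelet collagen receptor *Gp6* was near the floor in both genotypes (9.3 and 10.6 on average). The part of these cells in the fall of *Clec1b* was not tested.

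*Clec12a* (ENSMUSG00000053063, chromosome 6, 129319654 to 129342266, plus strand), the inhibitory receptor of the group, was lower by less. Its normalized counts were 1838.1, 1603.7, 1852.6, 1706.5 and 2034.1 in *Mrc1Cre Xpr1fl/fl* samples 1 to 5 and 2646.6, 2188.9, 2766.7 and 2266.8 in controls 1 to 4. The highest *Mrc1Cre Xpr1fl/fl* sample stood just below the lowest control, and the log2 fold change was −0.45 (SE 0.09, adjusted p = 0.00191 in limma). The date term reduced it to −0.31, and it no longer passed (adjusted p = 0.181 in limma).

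The DCIR relatives rose together. *Clec4a1* (ENSMUSG00000049037, chromosome 6, 122896122 to 122911578, plus strand) had 10606.5, 10545.5, 10343.5, 10352.8 and 11783.9 normalized counts in *Mrc1Cre Xpr1fl/fl* samples 1 to 5. Controls 1 to 4 had 8457.3, 7242.4, 7558.7 and 7418.6, and every *Mrc1Cre Xpr1fl/fl* sample lay above all of them. It was 1.40-fold higher, a log2 fold change of 0.48 (SE 0.06, adjusted p = 0.000114 in limma).
*Clec4a3* (ENSMUSG00000043832, chromosome 6, 122929380 to 122948807, plus strand), the next gene on the chromosome, had 5118.2, 5170.1, 4992.1, 5386.6 and 5061.1 normalized counts in *Mrc1Cre Xpr1fl/fl* samples 1 to 5 and 3605.9, 3191.3, 3474.6 and 3152.0 in controls 1 to 4. The spread within a genotype was small beside the gap between genotypes. The fold change was 1.53, or 0.62 on the log2 scale (SE 0.05, adjusted p = 1.52e-05 in limma). Both genes also passed with a date term, at 0.61 (adjusted p = 0.00533 in limma) for *Clec4a1* and 0.57 (adjusted p = 0.00594 in limma) for *Clec4a3*. The ratio of *Clec4a1* to *Clec4a3* within a sample was 2.09 ± 0.148 in *Mrc1Cre Xpr1fl/fl* samples and 2.29 ± 0.0829 in controls (SD), with p = 0.0476 in a two-sided exact permutation test and 0.0571 after adjustment over the 6 pairs. At the earliest date *Mrc1Cre Xpr1fl/fl* sample 5 (2.33) lay within the controls (2.18 to 2.35).

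*Clec7a* (ENSMUSG00000079293, chromosome 6, 129438554 to 129449742, minus strand), which encodes Dectin-1, had 8625.8, 7085.6, 10118.2, 9172.0 and 7290.2 normalized counts in *Mrc1Cre Xpr1fl/fl* samples 1 to 5. The controls had 6977.7, 6557.2, 5210.4 and 4712.3. *Mrc1Cre Xpr1fl/fl* sample 2 and control 1 lay close to each other, and no sample crossed over. The log2 fold change was 0.53 (SE 0.13, adjusted p = 0.00743 in limma). At the earliest date the difference was smaller, *Mrc1Cre Xpr1fl/fl* sample 5 being only slightly above control 1, and with a date term the change was 0.23 (95% interval −0.19 to 0.66, adjusted p = 0.485 in limma). *Clec4n* (ENSMUSG00000023349, chromosome 6, 123206802 to 123223980, plus strand), which encodes Dectin-2, had 6764.3, 6114.2, 7874.8, 7822.4 and 8296.5 normalized counts in *Mrc1Cre Xpr1fl/fl* samples 1 to 5 and 8628.6, 6097.1, 8528.0 and 8633.9 in controls 1 to 4. Its samples overlapped, and the log2 fold change of −0.11 had a 95% interval of −0.37 to 0.15 (adjusted p = 0.495 in limma). The estimate was 0.12 with a date term, and without control 2, which was well below the other controls, it was −0.23 (adjusted p = 0.0714 in limma).

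**Figure D2:**
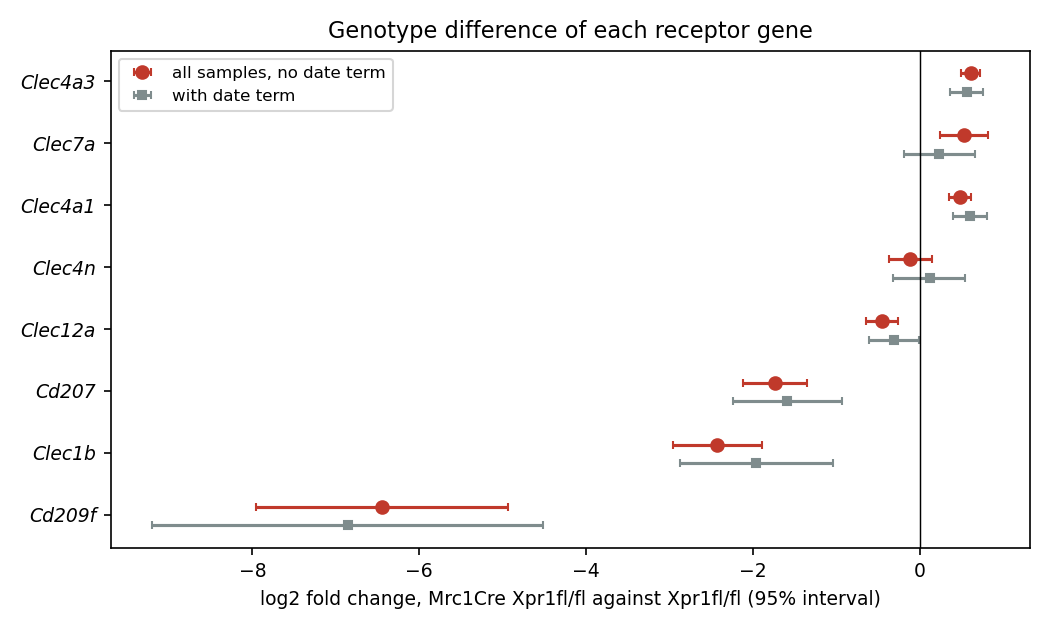
Log2 fold change of each receptor gene, *Mrc1Cre Xpr1fl/fl* against *Xpr1fl/fl* (horizontal axis, log2 scale), with its 95% interval, from all 9 samples without a date term (red circles) and with a date term (grey squares). The intervals of *Clec7a* and *Clec4n* with a date term include 0, and those of *Cd209f*, *Clec1b* and *Cd207* lie well below it.

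Ratios of receptors within a sample follow from these changes and are given without a test, except for *Clec1b* and *Clec12a*, which were both lower. *Clec7a* had 1.26 ± 0.406 times the normalized counts of *Clec1b* in controls and 9.90 ± 3.35 times in *Mrc1Cre Xpr1fl/fl* samples (SD), and at the earliest date *Mrc1Cre Xpr1fl/fl* sample 5 (6.08) lay above the controls (0.997 to 1.82). *Clec1b* stood at 1.95 ± 0.252 times *Clec12a* in controls and at 0.511 ± 0.145 times in *Mrc1Cre Xpr1fl/fl* samples, with sample 5 (0.590) below the controls of its date (1.65 to 2.03). A two-sided exact permutation test gave p = 0.0159 for this pair, the smallest it can give, and 0.0476 after adjustment over the 6 pairs. *Clec4n* had 3.23 ± 0.430 and 4.08 ± 0.359 times the level of *Clec12a*, with sample 5 (4.08) above the controls of its date (2.79 to 3.26). *Clec7a* had 0.760 ± 0.238 times the level of *Clec4n* in controls and 1.15 ± 0.164 times in *Mrc1Cre Xpr1fl/fl* samples, but sample 5 (0.879) lay within the controls of its date (0.611 to 1.08). Divided by the length of the canonical transcript in kb, the levels in controls ran from *Clec7a* (8294.8 ± 1522.1 normalized counts per kb) through *Clec4n* (6418.6 ± 1007.1), *Clec4a1* (4922.5 ± 347.3), *Clec1b* (2983.9 ± 506.6), *Clec4a3* (1021.6 ± 67.0), *Clec12a* (986.1 ± 112.9) and *Cd207* (357.0 ± 51.7) to *Cd209f* (300.7 ± 250.4). Neighbours in that order overlapped in their samples among *Clec7a*, *Clec4n* and *Clec4a1*, between *Clec4a3* and *Clec12a* and between *Cd207* and *Cd209f*, and the other steps were larger than the spread of the samples. In *Mrc1Cre Xpr1fl/fl* samples *Clec1b* went from the 4th place to the 6th, at 577.6 ± 185.4 per kb, and *Clec4a1* (6884.7 ± 386.6) stood above *Clec4n* (5937.5 ± 727.0), with some overlap of samples. The order of the top 3 rests on the transcript chosen, since with the longest transcript *Clec7a* was the third in both genotypes, while the places of *Clec1b* were the same.

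Most of these receptors lie in gene clusters, and their lectin neighbours within 200 kb were examined next. In the cluster around *Clec4n* on chromosome 6, 8 of 9 lectin genes had a row, and 5 of the 8 tested were higher, beside 21.5% over all genes, and 0 lower in limma (0 also at an unadjusted p under 0.05). Beside *Clec4a1* and *Clec4a3*, these were *Clec4a2*, the gene of the inhibitory receptor DCIR, *Clec4b1*, and *Clec4d*, which encodes a partner of Dectin-2. *Clec4a2* had 4276.2 ± 168.5 normalized counts in controls and 6228.2 ± 254.7 in *Mrc1Cre Xpr1fl/fl* samples (log2 fold change 0.54, adjusted p = 2.04e-05 in limma). *Clec4d* went from 78.9 ± 5.1 to 240.9 ± 30.5 (1.59, adjusted p = 1.15e-05 in limma), the largest rise of the cluster. *Clec4b1*, at 37.0 ± 6.8 and 70.8 ± 15.2, changed by 0.91 (adjusted p = 0.00471 in limma), and *Clec4n*, *Clec4a4* and *Clec4e* did not pass. The rise was not limited to lectin genes. Of the 10 genes other than the receptors tested within 200 kb, 5 were higher (21.5% over all genes) and 5 did not pass. Among the higher ones were *C3ar1* (0.7, adjusted p = 4.96e-05 in limma) and *Necap1* (0.31, adjusted p = 0.00202 in limma), which are not lectin genes.
In the cluster around *Clec7a*, 2 of the 10 lectin genes tested were higher, 4 were lower and 4 did not pass, beside 21.5% higher and 21.6% lower over all genes tested, so that the share of higher genes was near that of all genes. The higher ones were *Clec7a* and *Klrk1*, a natural killer receptor gene that lost its call in 6 of the 9 fits that left out a sample. The genes that were lower were *Clec12a*, *Clec1b*, *Clec9a* and *Olr1*. *Clec9a*, the dendritic cell receptor for exposed actin, had 289.0 ± 40.8 normalized counts in controls and 56.0 ± 36.7 in *Mrc1Cre Xpr1fl/fl* samples (−2.56, adjusted p = 0.000339 in limma). *Olr1*, a receptor for oxidized lipoprotein, had 83.0 ± 18.5 and 20.1 ± 7.5 (−2.04, adjusted p = 0.000264 in limma). Dendritic cell genes other than *Clec9a* were 1 higher, 5 lower and 5 not called of 11, with summed levels of 1716.1 to 2141.6 in *Mrc1Cre Xpr1fl/fl* samples and 1672.3 to 3637.7 in controls. *Xcr1*, which marks the dendritic cells known for *Clec9a*, was near the floor at 9.2 and 7.3 on average.
Around *Cd209f*, 4 of 9 lectin genes had a row and 3 were tested, with 2 lower (*Cd209f* and *Clec4g*) and 0 higher in limma (0 also at an unadjusted p under 0.05). Over all genes 21.6% were lower. Both of the lower genes passed the filter on low values only through the controls, so this count is not read as a result. *Clec4g*, a lectin gene of sinusoidal endothelium with at most 65.5 normalized counts, lost its call in 4 of the 9 fits that left out a sample. With a date term, *Clec9a*, *Olr1*, *Clec4g* and *Klrk1* no longer passed, while *Clec4f*, *Clec4a2*, *Clec4d* and *Clec4b1* did.

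**Figure D3:**
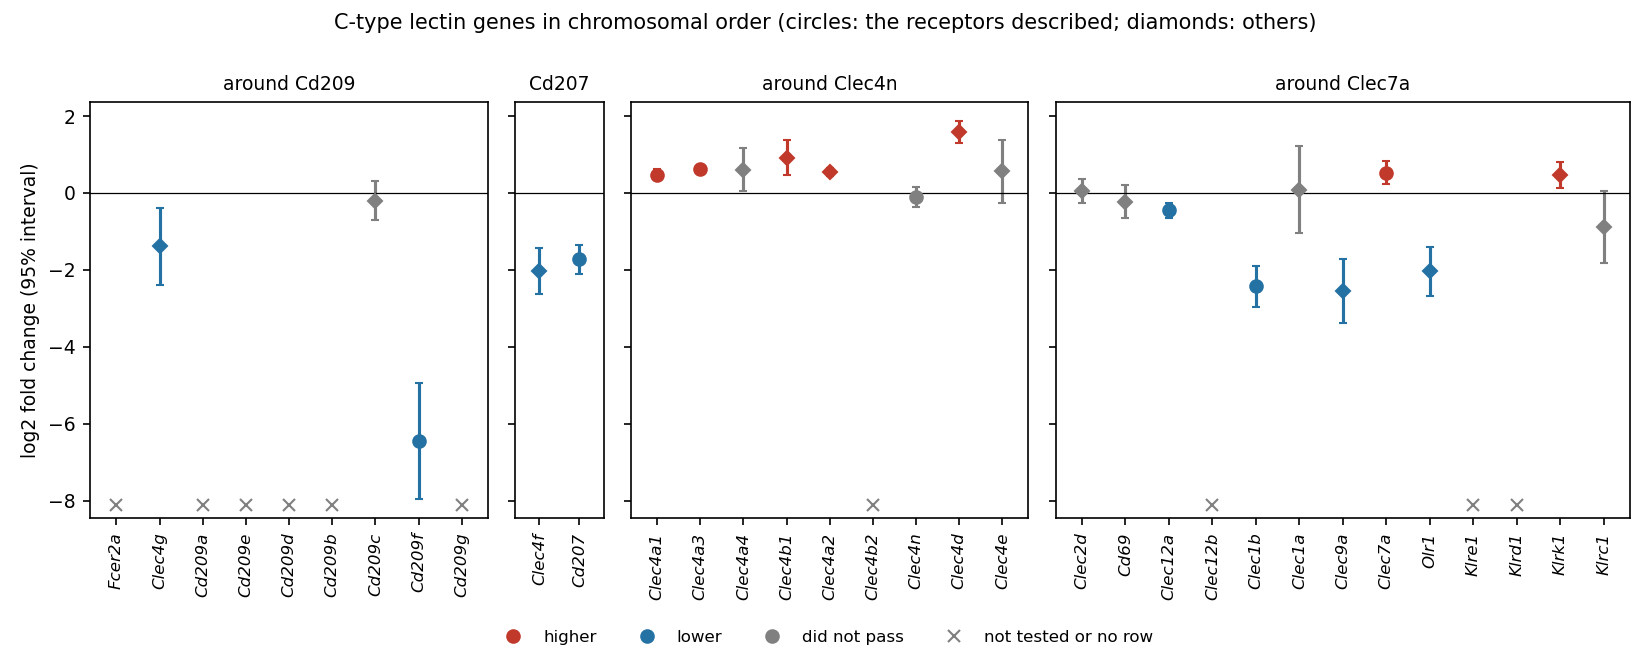
Log2 fold changes with 95% intervals (vertical axis, *Mrc1Cre Xpr1fl/fl* against *Xpr1fl/fl*) of the C-type lectin genes in their order on chromosome 8 (first panel) and chromosome 6 (the other panels), spaced evenly and not by distance. Red is higher, blue lower, grey did not pass, and a cross marks a gene with no row or not tested. The cluster around *Clec4n* holds 5 red points and no blue ones, and the cluster around *Clec7a* holds both.

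Beyond these receptors, 75 other mouse genes with a C-type lectin domain were listed, of which 44 had a row and 42 were tested. Of these, 7 were higher, 19 were lower (*Mrc1* among them) and 16 did not pass, beside 21.5% higher and 21.6% lower over all genes. The median log2 fold change was −0.61, beside 0.005 for all genes tested. Some of the lower genes passed the filter on low values only through the controls, such as *Mgl2*, *Cd248*, *Frem1*, *Clec4g* and *Klrb1b*. The count of lower genes and the median lean that way. With a date term, 4 were higher and 6 lower (4.24% and 4.54% over all genes), and of the genes named next *Colec12* and *Clec2i* still passed. Of the abundant ones, *Colec12*, a scavenger receptor, fell from 4797.4 ± 1143.9 to 1426.7 ± 234.2 normalized counts (−1.73, adjusted p = 2.16e-05 in limma). *Cd302* changed little, from 4740.8 ± 168.2 to 4092.7 ± 188.7 (−0.21, adjusted p = 0.00528 in limma). *Clec2i*, whose product is a ligand of natural killer receptors, rose from 231.7 ± 60.4 to 623.4 ± 48.9 (1.46, adjusted p = 5.51e-05 in limma), and *Cd72*, an inhibitory receptor, from 424.0 ± 57.7 to 595.5 ± 94.1 (0.48, adjusted p = 0.0119 in limma). *Clec2d* had 465.4 ± 82.1 and 481.8 ± 81.4 (0.05, adjusted p = 0.797 in limma). *Clec14a*, an endothelial gene, had 127.2 ± 87.2 and 32.1 ± 14.5 (−1.74, adjusted p = 0.0137 in limma).

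The genes that relay the signals of these receptors were examined next. Of 46 genes tested, 23 were higher, 5 were lower and 18 did not pass, with a median log2 fold change of 0.19. Over all genes 21.5% were higher and 21.6% lower, with a median of 0.005, and the counts of the smaller groups that follow are few genes each and are to be read beside these shares. The ITAM adaptors did not pass: *Fcer1g*, the Fc receptor gamma chain, had 14848.1 ± 765.0 normalized counts in *Mrc1Cre Xpr1fl/fl* samples and 14003.0 ± 1560.9 in controls (0.09), and *Tyrobp* (DAP12) had 11969.1 ± 433.4 and 12831.5 ± 1152.3 (−0.10). None of these adaptors passed at an unadjusted p under 0.05 either, 0 of 2 in limma. Of the kinases, 5 of 10 were higher and 4 lower. *Syk* rose from 12022.9 ± 448.5 to 14920.5 ± 138.2 (0.31, adjusted p = 0.000227 in limma) and *Fgr*, a Src family kinase of myeloid cells, from 1192.4 ± 121.4 to 2079.6 ± 187.2 (0.80, adjusted p = 4.45e-05 in limma). *Src*, at 131.1 ± 29.3 and 44.1 ± 13.2, fell by 1.57 on the log2 scale (adjusted p = 0.000307 in limma).
Downstream, 6 of 13 scaffold, exchange factor and lipase genes were higher and 1 was lower. *Plcg2*, the phospholipase that SYK activates, changed by 0.38 (adjusted p = 0.000881 in limma), *Vav3* by 0.66 (adjusted p = 0.000135 in limma) and *Rasgrp3* by −1.08 (adjusted p = 0.0172 in limma, and 0.0556 without control 3). *Card9* was level, with 628.4 ± 45.0 and 631.3 ± 26.6 normalized counts (−0.01, adjusted p = 0.936 in limma), while 7 of the 12 genes of the CARD9 and NF-kB group were higher and 0 lower (0 also at an unadjusted p under 0.05 in limma). Of 5 NFAT genes and targets, 2 were higher. The phosphatases that ITIM receptors recruit were higher in 3 of 4 cases, *Ptpn6* (SHP-1) by 0.38, *Ptpn11* (SHP-2) by 0.35 and *Inpp5d* (SHIP-1) by 0.36 on the log2 scale (adjusted p = 0.000202 in limma, 0.00129 and 0.00103). With a date term, 11 signalling genes were higher and 1 was lower (4.24% and 4.54% over all genes), and of the named ones *Syk*, *Fgr* and *Ptpn6* still passed.

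**Figure D4:**
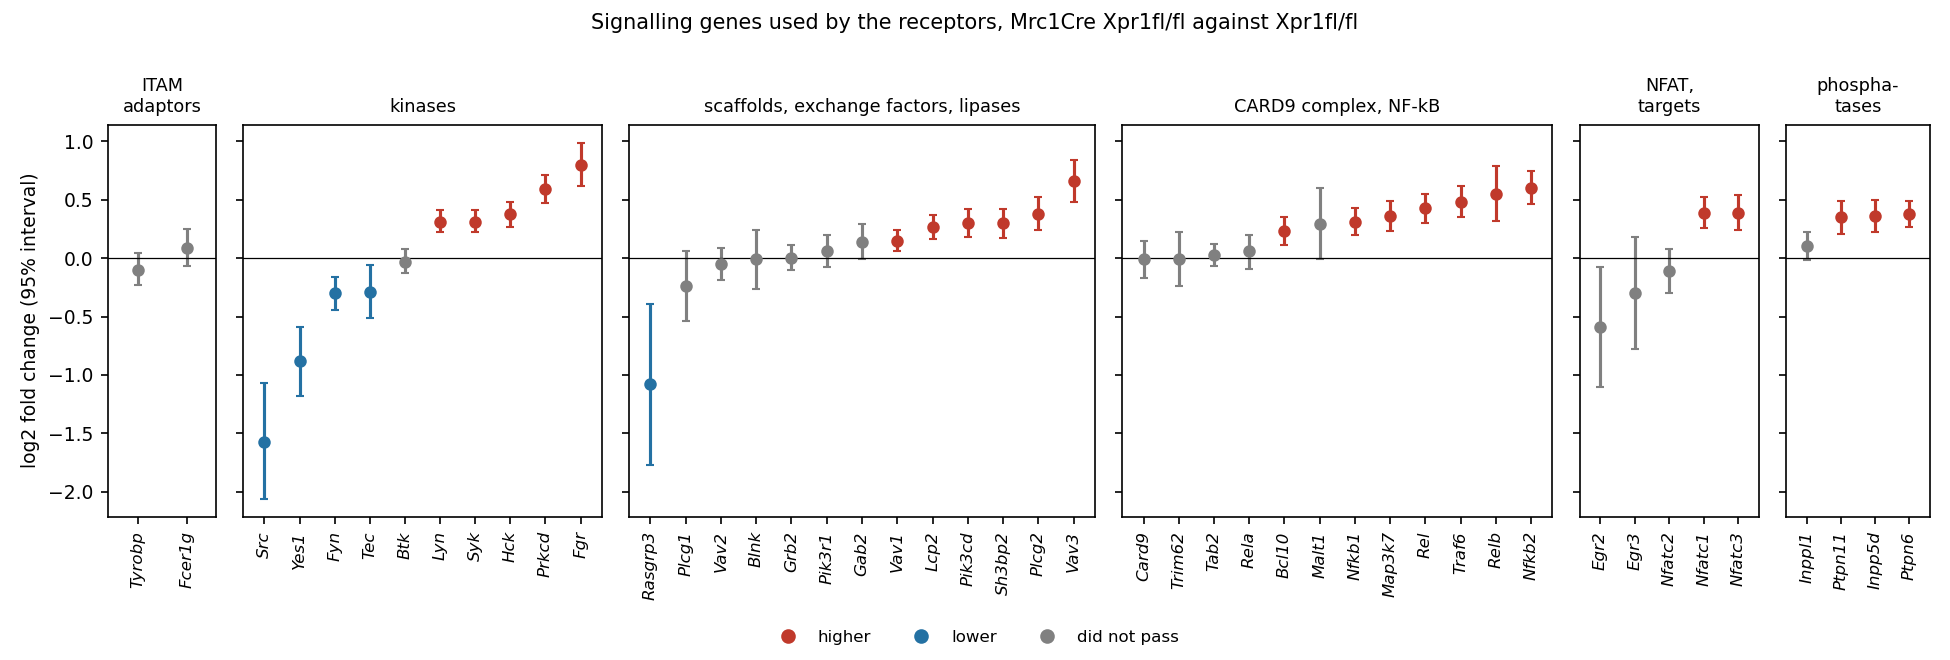
Log2 fold changes with 95% intervals (vertical axis, *Mrc1Cre Xpr1fl/fl* against *Xpr1fl/fl*) of the 46 signalling genes, grouped by role and sorted within a group. Red is higher, blue lower and grey did not pass. The adaptors lie near 0, most genes of the CARD9 and NF-kB group are at or above 0, and the kinases run from −1.57 (*Src*) to 0.80 (*Fgr*).

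Of 5 genes of possible ligands, 4 had a row, and *Pdpn*, which encodes the CLEC-2 ligand podoplanin, had none. *Vim* (0.25, adjusted p = 0.00395 in limma) and *Anxa5* (0.33, adjusted p = 0.0047 in limma) were higher. The others were *Lgals9*, at 6569.4 ± 597.8 in controls and 7413.6 ± 524.7 in *Mrc1Cre Xpr1fl/fl* samples (adjusted p = 0.0657 in limma), and *Anxa1*, at 1259.1 ± 890.7 and 555.4 ± 284.1 (adjusted p = 0.17 in limma, and 0.00731 without control 4). With a date term, 0 ligand genes passed in limma (1 was higher at an unadjusted p under 0.05).

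Genes of other cells moved with the genotype beside these receptors. Macrophage markers were high in all samples, with *Csf1r* at 77102.5 ± 5258.6 normalized counts in controls and 84995.4 ± 6384.8 in *Mrc1Cre Xpr1fl/fl* samples. Of 12 macrophage genes 2 were higher and 4 lower. Erythroid genes were lower in 15 of 15, with a summed level of 106884.2 to 322264.2 in *Mrc1Cre Xpr1fl/fl* samples and 425360.5 to 669355.6 in controls, and hepatocyte genes in 8 of 8 (34667.1 to 44747.4 against 58296.7 to 100066.6). Endothelial genes were lower in 10 of 11 (6103.4 to 8355.5 against 10208.1 to 14042.8). Granulocyte genes were lower in 5 of 13 (5165.8 to 19052.9 against 9259.3 to 56084.3), and B cell and mast cell genes in 6 of 8, with 1 higher (1789.2 to 2157.9 against 1694.7 to 2598.8). Monocyte genes were 4 higher and 4 lower of 12, and their sum was higher in *Mrc1Cre Xpr1fl/fl* samples (28616.4 to 35050.6 against 19867.5 to 23482.8). That sum was carried by the abundant *Cx3cr1*, *Treml4* and *Plac8*, while *Ly6c2*, *F13a1*, *Fn1* and *Spn* were lower. Fewer genes of all these cells passed with a date term, a fit that rests on 1 *Mrc1Cre Xpr1fl/fl* sample. Erythroid genes were then lower in 5 of 15, hepatocyte genes in 2 of 8, endothelial genes in 1 of 11, granulocyte genes in 4 of 13 and B cell and mast cell genes in 5 of 8, macrophage genes and monocyte genes were 1 higher and 2 lower each, and dendritic cell genes 1 higher and 3 lower. In the 4 lists without a higher gene, limma found 0 higher at an unadjusted p under 0.05 as well. Median log2 fold changes without and with the date term were −1.83 and −0.97 for erythroid genes and −1.1 and −0.51 for hepatocyte genes. They were −1.34 and −1.1 for endothelial genes, −1.42 and −0.7 for granulocyte genes, and −1.31 and −1.97 for B cell and mast cell genes. The part of these cells in the changes of the receptors was not tested.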

How the data were processed

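Macrophages sorted from E15.5 livers were profiled by bulk RNA-seq (Illumina stranded mRNA libraries, 45 ng of total RNA each) in 5 *Mrc1Cre Xpr1fl/fl* and 4 *Xpr1fl/fl* samples. The authors ran FastQC, then salmon against GRCm39, AnnotationHub, tximport and DESeq2. The deposited values are the resulting signal, normalized counts of 13708 genes with a mean of 5.789 or more. Versions and the filter are not given in the sources used here. Whole reads could not be recovered from the values (26.0 to 49.7% of low values came out whole within 0.05 of a read, against 10.0% by chance), so no count test was run and depth is unknown. All columns matched a sample by name (0 did not).

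Symbols and coordinates came from GENCODE mouse release M39, which named 13698 of the genes. The genotypes were compared in R 4.3.3 by limma 3.58.1 (lmFit, then eBayes with a trend) after adding a pseudocount of 1 and taking log2. A gene entered the test when 4 or more samples had 10 or more normalized counts, which left 13594, and p-values were adjusted over them by Benjamini-Hochberg (threshold 0.05). Fold changes on this scale understate those of low genes. Ratios of 6 pairs of genes within samples were compared by two-sided exact permutation over 126 splits (the smallest possible p is 0.0159). Their p is given only for the pairs whose genes were both called in the same direction, since the other ratios restate calls of single genes. On simulated data limma recovered 199 of 200 changed genes with 10 false calls among 13583 tested, and without change it made 0 calls. The simulation gave every gene the same low dispersion, changed only those 200 genes and held no date effect. It checks the code and does not vouch for calls in these data. The correlation between any pair of samples was 0.947 to 0.986, and none was treated as a repeat.

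Alternatives were pseudocounts of 0.5 and 10, no filter and one of 50, rescaling to a common 75th percentile, quantile normalization, limma untrended or robust, a replicate block, a date term, and leaving out each sample. The longest transcript for levels per kb was added after seeing the data. The receptors, gene lists and tests were chosen with earlier results of these data known. Genes were named by rule: each receptor with a row, *Xpr1* and *Mrc1*, the 8 most abundant other lectin genes, the 3 that rose most and the 3 that fell most (mean of at least 50), fixed signalling genes with the 2 largest changes each way, all ligands, the most abundant gene of other lists and up to 3 neighbours per cluster. *Cd209g*, *Gp6*, *Itga2b*, *Necap1* and *Xcr1* are exceptions picked with their values in view, like the genes named only for their direction or for the filter. The rule also picked *Stab2*, *Cd79b* and the neighbours *Camsap3*, *Tgfbr3l*, *Dguok* and *Nagk*, which are not described. Figures were drawn with matplotlib 3.10.9.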

Additional observations from a re-analysis of the deposited data

Results flagged for a closer look

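In 10 of the 108 groups of values examined (each gene in each genotype), 1 sample stood apart from the others by a gap that is large for the range of its group (Dixon's criterion), where chance gives about 5.4. Control 2 was low for *Clec1b* (3604.8 normalized counts against 5095.7 to 5362.9 in the other controls), for *Clec4n* (6097.1 against 8528.0 to 8633.9) and for *Trf* (27161.3 against 36806.6 to 38737.5). Without it the log2 fold change of *Clec1b* was −2.56.

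*Mrc1Cre Xpr1fl/fl* sample 5, the only one of its genotype at the earliest date, was high for *Clec4a1* (11783.9 against 10343.5 to 10606.5), *Fcer1g* (16199.3 against 14309.3 to 14633.2), *Anxa1* (1058.4 against 399.7 to 499.4), *S100a9* (4994.6 against 907.5 to 1786.8) and *Hba-a1* (85791.2 against 25797.6 to 43152.1). It was low for *Clec2i* (536.2 against 640.7 to 651.5). Without it the log2 fold change of *Clec4a1* was 0.45 (limma adjusted p = 0.000103). *Mrc1Cre Xpr1fl/fl* sample 2 was low for *Clec4d* (188.4 against 244.8 to 263.8).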

How the results depend on the processing

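Of 152 values of the 8 receptors under 19 alternatives, with those of *Cd209f* included although it had to differ, 149 kept their direction and their side of the threshold. The exceptions came with the date as a term, which ended the calls of *Clec7a* and *Clec12a* and turned *Clec4n* from −0.11 to 0.12 (−0.23 to −0.04 when single samples were left out). The date term also reduced the calls over all genes to 577 higher and 617 lower, the other lectin genes to 4 higher and 6 lower, the signalling genes to 11 higher and 1 lower, the ligands to 0 higher (1 at an unadjusted p under 0.05 in limma) and the genes within 200 kb that were lower to 2. The lectin genes that were lower numbered 10 with the filter of 50, which tests fewer genes, and 12 with quantile normalization, for which the cause was not tested. Leaving out single samples gave 12 to 22 for them and 3 to 6 signalling genes that were lower (lowest without control 3 in both cases) and 0 to 1 ligand that was lower (1 without control 4). Scaling to the 75th percentile moved the median of all genes to −0.074 and the share of higher genes among those called from 49.9% to 35.0%, and all 7 receptor calls held. Samples with the same number did not deviate together (correlations −0.0333, 0.147, −0.0113 and −0.0313), and with the number as a replicate block, 6226 genes were called instead of 5865, 1 ligand was lower and no receptor call changed. Values near 0 changed sign: *Clec2d* to −0.03 with the 75th percentile and −0.04 with the block (−0.08 to 0.13 without single samples), *Card9* to 0.03 with quantile normalization and 0.04 with the date (−0.04 to 0.02), *Csf1r* to −0.02 with the date, and *Cd74* to −0.09 with the date (−0.17 to 0.48). Depth is unknown, and *Cd209f* in *Mrc1Cre Xpr1fl/fl* samples is too low for a firm fold change.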
